A study of Rattus norvegicus with 4 samples.

Results

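The integrated stress response is described here through 10 genes, its transcription factors Atf4, Atf5, Atf3, Ddit3 and Cebpb and the feedback and effector genes Trib3, Chac1, Ppp1r15a, Sesn2 and Ddit4, chosen by their gene symbols out of the 18699 genes of the expression table. All 10 were found, each in a single row, and all 10 passed the filter on low counts that left 14519 genes to test. The cells were neonatal rat ventricular myocytes (NRVMs), primary heart muscle cells from wild-type Sprague Dawley rats 1 to 3 days old, cultured in serum with bromodeoxyuridine, which holds back dividing cells other than cardiomyocytes. The carfilzomib group had 2 libraries from cells given 1 µM of this irreversible proteasome inhibitor for 24 h, and the vehicle group had 2 libraries from cells given vehicle for the same 24 h. The comparison addresses how carfilzomib, a myeloma drug, harms heart cells. The labels leave unsaid if replicate libraries stem from different cultures, so the p-values read the spread of these libraries alone, and that spread may be technical.

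In the integrated stress response, kinases that sense unfolded protein, missing amino acids, viral RNA or haem shortage phosphorylate the translation initiation factor eIF2. Phosphorylated eIF2 blocks its exchange factor eIF2B, which lowers protein synthesis in general but raises translation of the mRNA of ATF4. ATF4 then switches on genes of amino acid supply and, together with CHOP (the product of Ddit3), feedback genes such as Ppp1r15a, whose product brings a phosphatase to eIF2. In cultured cells, proteasome inhibitors are a textbook trigger of this pathway. Only mRNA was measured here, and neither eIF2 phosphorylation nor ATF4 protein can be read from it.

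The libraries held 18655499 to 18884362 estimated counts. With carfilzomib 60.7% of the 14519 tested genes were called changed, that is, had a Benjamini-Hochberg adjusted p under 0.05 in edgeR's quasi-likelihood test. Of all tested genes 30.1% were called lower and 30.6% higher, so a call alone sets no gene apart. All 10 cardiomyocyte markers were detected and all 10 fell, with summed levels of 6408 and 6195 CPM (counts scaled to library size with TMM factors) in the carfilzomib libraries and 29779 and 29528 CPM in the vehicle libraries. The 10 fibroblast markers summed to 19054 and 18416 CPM with carfilzomib and 33147 and 33524 CPM with vehicle, and all 10 fell. The 7 smooth muscle markers summed to 4260 and 3993 CPM with carfilzomib and 5213 and 5475 CPM with vehicle, and 6 fell and 1 rose. The one that rose was Des, which cardiomyocytes also express and which was named after its values were seen, at 2914 and 2690 CPM with carfilzomib and 1387 and 1507 CPM with vehicle, and the list's median log2 fold change was -1.38. The 10 macrophage markers summed to 30.7 and 29.2 CPM with carfilzomib and 80.3 and 83.2 CPM with vehicle, and the 7 that could be tested fell. The 8 endothelial markers summed to 95.1 and 92.0 CPM with carfilzomib and 88.0 and 88.6 CPM with vehicle, and 2 rose and 2 fell. No marker was at 0 in all 4 libraries. In such bulk samples fewer cells of a type and less RNA per cell cannot be told apart. What part these shifts of cell type markers have in the results that follow was not tested.

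Of the 10 genes, 6 fell with carfilzomib, 2 rose and 2 did not pass, against 30.1% of all tested genes lower and 30.6% higher. Atf4, Atf5, Chac1, Trib3 and Sesn2 fell to between 24.4% and 62.0% of their mean vehicle level, and the other 5 genes stayed within 1.16-fold of it. The median log2 fold change of the 10 was -0.43, where that of all tested genes was 0.0028. Falls of at least 2-fold that passed the test were seen in 3 of the 10, Chac1, Trib3 and Atf5, and in 7.38% of all tested genes. With DESeq2 in place of edgeR 1 of the 10 was called higher, as Atf3 lost its call, and Ddit3 lost its call as lower. Both genes also lost their calls when some single libraries were left out. In 8 of the 10 genes the groups did not overlap, as in 79.9% of all tested genes. All fold changes are carfilzomib over vehicle.

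**Figure D1:**
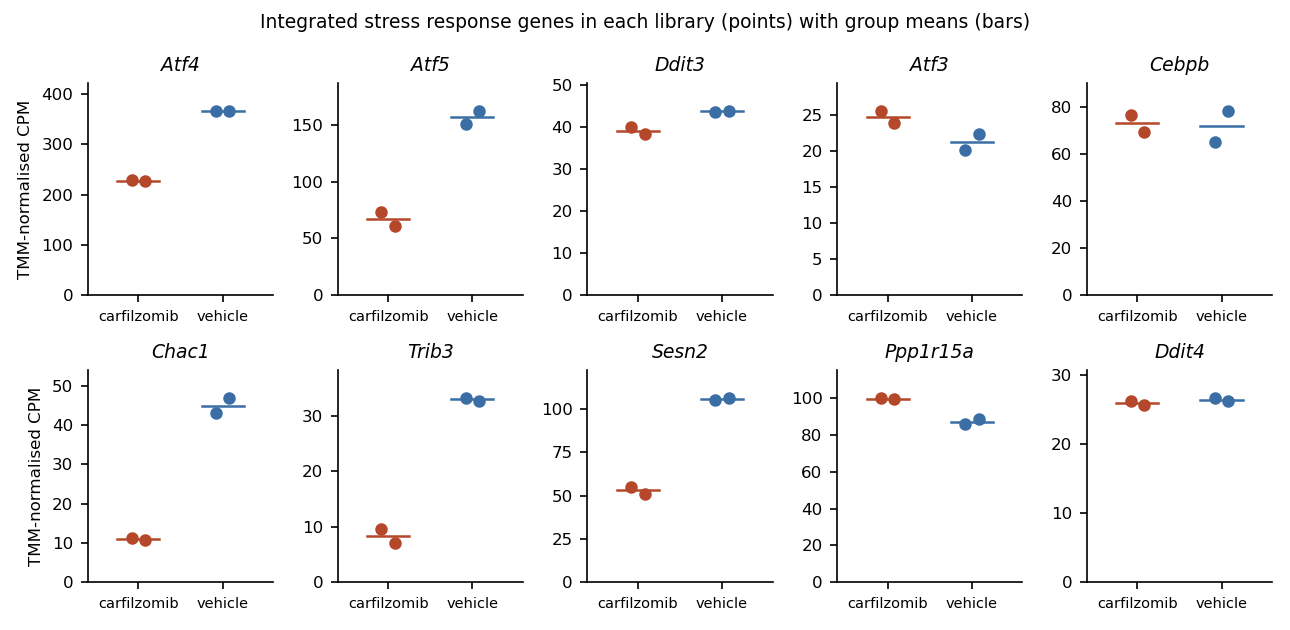
TMM-normalised CPM of the 10 genes, with the carfilzomib libraries left and the vehicle libraries right in each panel (points are libraries, bars are group means, n = 2 each, axes start at 0). Atf4, Atf5, Chac1, Trib3 and Sesn2 sit well below vehicle with carfilzomib, while the points of Cebpb and Ddit4 overlap.

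Atf4 encodes the central transcription factor of the pathway, a basic leucine zipper (bZIP) protein. It had 229 and 226 CPM in the carfilzomib libraries, against 367 and 367 CPM in the vehicle libraries. Both carfilzomib libraries lay below both vehicle libraries, and replicates differed by 2.87 CPM with carfilzomib and 0.064 CPM with vehicle. Atf4 fell (log2 fold change -0.69 ± 0.04 SE, edgeR adjusted p = 1.2e-09). It rested on 4372 and 4271 counts with carfilzomib and 6817 and 6782 counts with vehicle, the largest numbers among the 10. The fold change lay between -0.70 and -0.66 under 12 other settings, all of which called it.

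Atf5 encodes a bZIP factor related to ATF4 whose mRNA is also translated better when eIF2 is phosphorylated. It had 73.3 and 60.6 CPM with carfilzomib, against 151 and 162 CPM with vehicle. The groups were far apart although the replicates of each differed by more than those of Atf4. Atf5 fell (log2 fold change -1.23 ± 0.09 SE, edgeR adjusted p = 1.56e-05). Its counts carry decimals, which may mean that some reads were shared out between genes, so its level is less certain. Ddit3 and Atf3 have such decimals too, and the other 7 genes have none. Of the genes outside the 10 that are named further on, Eif2ak1, Ppp1r15b, Sesn3, Slc7a1, Slc7a11, Slc38a1, Iars1, Mars1, Gdf15, Nupr1, Atf6, Canx, Yme1l1, Hspa9, Deptor and Snn have such decimals.

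Ddit3 encodes CHOP, a bZIP factor linked to cell death under prolonged stress. It had 39.9 and 38.2 CPM with carfilzomib, against 43.6 and 43.8 CPM with vehicle. The groups did not overlap, but the difference was small (log2 fold change -0.16 ± 0.06 SE, edgeR adjusted p = 0.0297). Leaving out any single library ended the call, with adjusted p from 0.0632 to 0.229, and DESeq2 gave an adjusted p of 0.223. Over all other settings the adjusted p ranged from 0.0238 to 0.229.

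Atf3 encodes a bZIP factor that is induced by ATF4 and by many other stress signals. It had 25.6 and 23.8 CPM with carfilzomib, against 20.1 and 22.4 CPM with vehicle. The groups stood 1.43 CPM apart and the vehicle replicates 2.32 CPM. Atf3 was called higher at 0.22 ± 0.08 (log2, SE), with an edgeR adjusted p of 0.0324. That call was lost without carfilzomib replicate 1, where the log2 fold change was 0.17 and the adjusted p 0.226, and without vehicle replicate 1, where they were 0.14 and 0.204. DESeq2 gave an adjusted p of 0.235, and over all other settings it ranged from 0.0145 to 0.235.

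Cebpb encodes C/EBPβ, which pairs with ATF4 and CHOP. It had 76.6 and 69.3 CPM with carfilzomib, against 64.8 and 78.3 CPM with vehicle. The vehicle libraries enclosed both carfilzomib libraries. Its difference of 0.03 ± 0.09 on the log2 scale (SE) missed the threshold at an edgeR adjusted p of 0.812, and the sign turned without carfilzomib replicate 1, at -0.04, and without vehicle replicate 1, at -0.10.

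Among the feedback and effector genes, Chac1 encodes an enzyme that breaks down glutathione and is a standard marker of ATF4 activity. It had 11.2 and 10.7 CPM with carfilzomib, against 43.0 and 46.9 CPM with vehicle. The carfilzomib mean was at 24.4% of the vehicle mean, a 4.10-fold fall, and the groups were far apart. Chac1 fell by 2.04 ± 0.08 (SE) on the log2 scale at an edgeR adjusted p of 1.48e-11, and 1.22% of tested genes had a lower fold change.

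Trib3 encodes a pseudokinase that is induced by ATF4 and CHOP and restrains ATF4 in turn. It had 9.70 and 7.15 CPM with carfilzomib, against 33.2 and 32.7 CPM with vehicle. The vehicle replicates were close, and the carfilzomib replicates, with 185 and 135 counts, were the shallowest values among the 10 genes. Trib3 fell 3.91-fold, a log2 fold change of -1.97 ± 0.11 (SE) with an edgeR adjusted p of 3.23e-09. Without single libraries that log2 fold change lay between -2.20 and -1.76, and it was called each time.

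The promoters of Chac1 and Trib3 are shown because these genes had the lowest fold changes of the 10, and that of Ppp1r15a because it was called higher. The sequences are the 250 bases before the RefSeq gene start on build GRCr8, which is not the build Rnor_6.0 named in the submitters' processing notes. Capitals mark the C/EBP-ATF response element core TGATGNAA or the cAMP response element TGACGTCA, searched on both strands. Chac1 is on the plus strand at chr3:126795881-126796130, Trib3 on the minus strand at chr3:161275534-161275783 and Ppp1r15a on the minus strand at chr1:105139597-105139846.
Chac1: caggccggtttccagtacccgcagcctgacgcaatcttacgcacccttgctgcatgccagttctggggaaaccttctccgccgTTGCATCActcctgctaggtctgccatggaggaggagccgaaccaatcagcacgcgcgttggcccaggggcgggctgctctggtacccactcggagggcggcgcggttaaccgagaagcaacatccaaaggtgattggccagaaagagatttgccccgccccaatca
Trib3: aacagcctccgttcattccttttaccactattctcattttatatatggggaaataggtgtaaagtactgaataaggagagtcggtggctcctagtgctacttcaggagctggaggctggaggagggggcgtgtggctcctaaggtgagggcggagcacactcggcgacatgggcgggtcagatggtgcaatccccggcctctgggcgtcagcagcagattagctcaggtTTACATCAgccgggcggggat
Ppp1r15a: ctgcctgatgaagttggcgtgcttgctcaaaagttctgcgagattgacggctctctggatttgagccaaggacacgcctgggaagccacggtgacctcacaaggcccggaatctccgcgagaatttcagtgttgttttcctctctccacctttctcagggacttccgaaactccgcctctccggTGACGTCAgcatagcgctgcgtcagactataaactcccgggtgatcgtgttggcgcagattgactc
Each capital run in Chac1 and Trib3 is the reverse complement of TGATGNAA, and it begins at -167 in Chac1 and at -21 in Trib3, counted back from the gene start.

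RefSeq windows of 300 bases, 250 before and 50 after the start, were on hand for 9 of the 10 genes, with Atf3 the exception. TGATGNAA was found in 2 of the 9 (22.2%), those of Chac1 and Trib3, in 3.98% of all 33469 windows and in 2.06% of the 12857 windows of tested genes. Atf4, Atf5 and Sesn2 fell too, and their windows do not hold these letters. Nor does that of Ddit3, whose small fall was called by edgeR but not by DESeq2. Sequence further than 250 bases before the start was not searched, so a site there would be missed. TGACGTCA was found in 1 of the 9 windows, that of Ppp1r15a at -66, in 1.83% of all windows and in 2.88% of those of tested genes. The antioxidant response element core TGACNNNGC stood in the windows of 4 of the 9 genes, Atf5, Cebpb, Ppp1r15a and Sesn2, in 12.1% of all windows and in 14.1% of those of tested genes. CCACG, a part of the endoplasmic reticulum stress element, stood in 7 of the 9, in 31.6% of all windows and in 45.2% of those of tested genes. The unfolded protein response element TGACGTGG was in 0 of the 9, in 0.595% of all windows and in 0.84% of those of tested genes. In these 9 windows 0 matches overlapped another match.

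Sesn2 encodes sestrin 2, a leucine sensor that restrains the growth kinase complex mTORC1. It had 55.0 and 51.1 CPM with carfilzomib, against 105 and 106 CPM with vehicle. The groups were far apart (log2 fold change -0.99 ± 0.06 SE, edgeR adjusted p = 1.4e-09).

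Ppp1r15a encodes GADD34, the stress-induced subunit that guides a phosphatase to eIF2. It had 99.9 and 99.1 CPM with carfilzomib, against 85.8 and 88.4 CPM with vehicle. Both carfilzomib libraries lay above both vehicle libraries, by a small margin. Ppp1r15a rose (log2 fold change 0.19 ± 0.05 SE, edgeR adjusted p = 0.00442), and all 12 other settings called it, with adjusted p from 0.00133 to 0.0433.

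Ddit4 encodes REDD1, another brake on mTORC1, which responds to ATF4, low oxygen and glucocorticoids. It had 26.2 and 25.6 CPM with carfilzomib, against 26.7 and 26.2 CPM with vehicle. The groups overlapped, and the difference of -0.03 ± 0.07 on the log2 scale (SE) missed the threshold at an edgeR adjusted p of 0.74. With scaling by library size alone the log2 fold change was 0.0040.

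The authors' deposited table of changed genes, made with DESeq2, lists 6 of the 10 genes. Its header names control and carfilzomib without saying which is on top, and its signs are those of carfilzomib over vehicle in all 6052 of its genes tested here. In the authors' deposited table Chac1 stands at a log2 fold change of -2.03, Trib3 at -1.96, Atf5 at -1.22, Sesn2 at -0.99, Atf4 at -0.68 and Ppp1r15a at 0.20, the last with a q-value of 0.0357. Ddit3 and Atf3, called by edgeR but not by DESeq2, are not among its 6063 genes, and neither are Cebpb and Ddit4.

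**Figure D2:**
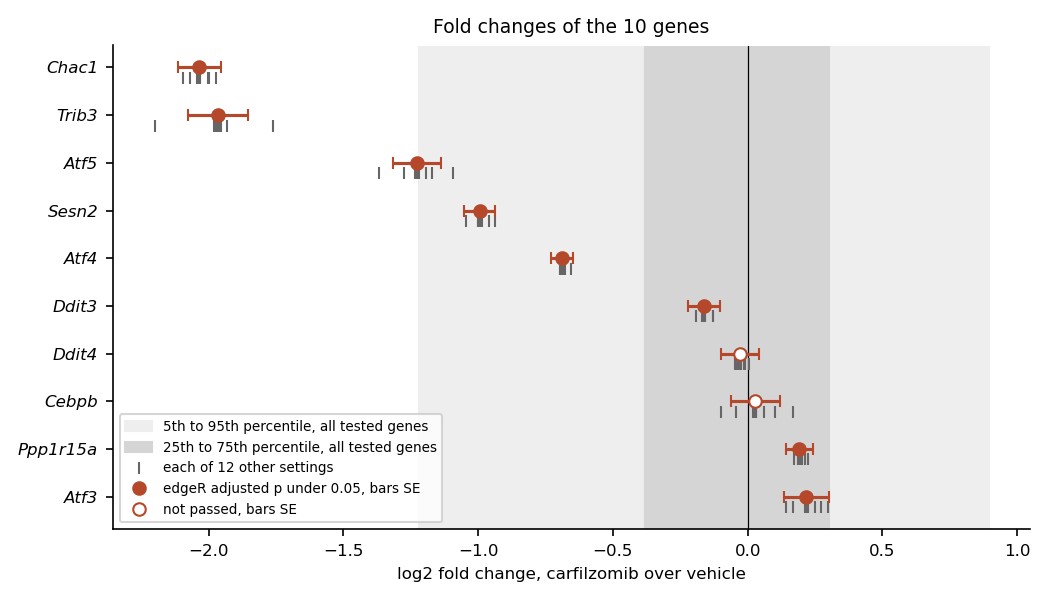
Log2 fold change of each gene, carfilzomib over vehicle, on the x axis (points with SE bars, filled where the edgeR adjusted p was under 0.05) with the values under 12 other settings as ticks, and the spread of all tested genes as grey bands. Chac1, at -2.04, and Trib3, at -1.97, lie outside the 5th to 95th percentile of all tested genes, which runs from -1.22 to 0.89, and Atf5, at -1.23, lies at its lower edge, while Ddit3, Ddit4, Cebpb, Ppp1r15a and Atf3 lie within the middle band from -0.38 to 0.30.

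Levels of different genes were compared per length, as FPKM (fragments scaled to gene length and library depth, as the authors deposited them). Atf4 was the most abundant of the 10 in every library, at 170.1 and 168 FPKM with carfilzomib and 267 and 266 FPKM with vehicle. It made up 38.7% and 40.4% of the summed FPKM of the 10 with carfilzomib and 42.7% and 41.2% with vehicle. The sum itself was 440 and 416 FPKM with carfilzomib and 626 and 646 FPKM with vehicle.

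The order below Atf4 differed between the groups. With carfilzomib it ran through Cebpb, Ppp1r15a, Ddit3, Atf5, Sesn2, Ddit4, Atf3, Chac1 and Trib3 by group mean. With vehicle it ran through Atf5, Ddit3, Cebpb, Ppp1r15a, Sesn2, Chac1, Trib3, Ddit4 and Atf3. Among neighbours in the carfilzomib order, Cebpb overlapped Ppp1r15a (55.9 and 50.7 FPKM with 51.0 and 50.7 FPKM) and Ddit3 overlapped Atf5 (50.2 and 47.0 FPKM with 47.4 and 39.1 FPKM). Among neighbours in the vehicle order, Ddit3 lay within the range of Cebpb (54.0 and 53.6 FPKM with 46.4 and 55.8 FPKM). Atf5 thus came next to Atf4 with vehicle and below Ddit3 by mean with carfilzomib, and Chac1 and Trib3, at 7.46 and 7.12 FPKM and at 7.09 and 5.24 FPKM with carfilzomib, were below Ddit4 and Atf3 there but above them with vehicle.

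Ddit3 stood at 29.5 and 28.0 FPKM per 100 FPKM of Atf4 with carfilzomib, against 20.2 and 20.2 with vehicle. Chac1 stood at 4.39 and 4.23 per 100 FPKM of Atf4 with carfilzomib, against 10.5 and 11.4 with vehicle, and Trib3 at 4.17 and 3.12, against 8.90 and 8.77. The mRNA of CHOP was therefore higher, and that of Chac1 and Trib3 lower, relative to Atf4 mRNA in both carfilzomib libraries than in either vehicle library. Ddit3 itself did not rise, at a mean of 48.6 FPKM with carfilzomib and 53.8 FPKM with vehicle. Its higher ratio reflects the fall of Atf4, which averaged 169 FPKM with carfilzomib and 266 FPKM with vehicle.

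**Figure D3:**
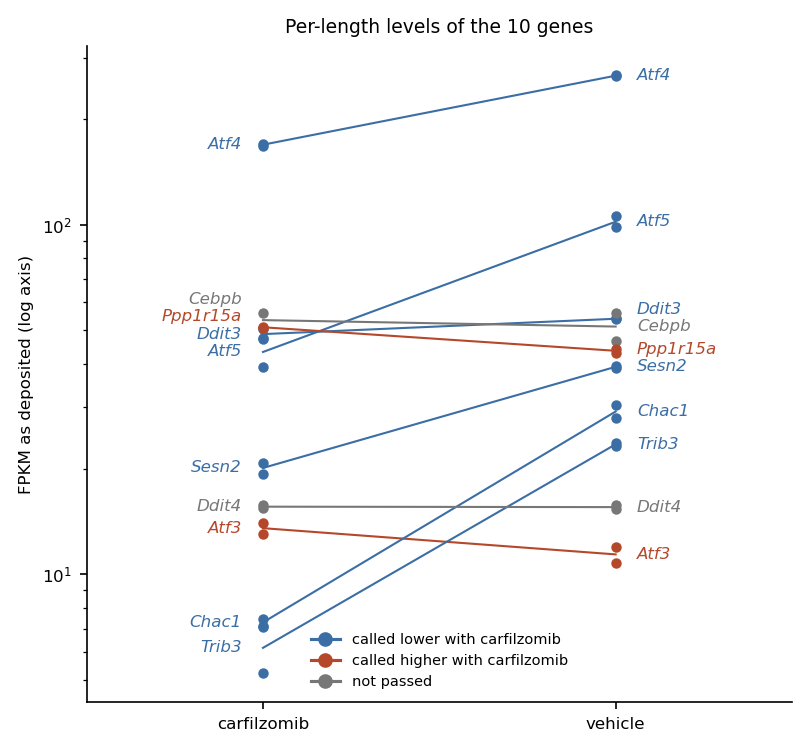
FPKM of the 10 genes on a log axis, carfilzomib left and vehicle right (points are libraries, lines join group means, n = 2 each, colour gives the edgeR call). Chac1 and Trib3 cross below Ddit4 and Atf3 with carfilzomib, and Atf5 drops among Ddit3, Cebpb and Ppp1r15a, while Atf4 stays on top at 169 FPKM on average with carfilzomib and 266 FPKM with vehicle.

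Upstream of Atf4, most genes of eIF2 and its control were higher with carfilzomib. Of 16 genes of eIF2 kinases, eIF2, eIF2B and their regulators 11 rose, 2 fell and 3 did not pass. The list's median was 0.29 on the log2 scale. The counts of this and the following lists stand beside 30.6% of all tested genes called higher and 30.1% called lower. Eif2ak1, the haem-regulated kinase HRI, rose to 78.5 ± 0.598 CPM with carfilzomib, against 51.9 ± 0.0467 CPM with vehicle (SD, n = 2 each), a log2 fold change of 0.60. Eif2ak2, the kinase PKR that senses double-stranded RNA, rose by a log2 fold change of 0.49. Eif2ak3, the kinase PERK of the endoplasmic reticulum, averaged 32.6 ± 0.62 CPM with carfilzomib and 33.6 ± 3.59 CPM with vehicle, and Eif2ak4, the amino acid sensor GCN2, 39.4 ± 0.22 CPM with carfilzomib and 38.1 ± 0.48 CPM with vehicle. Neither passed, with edgeR adjusted p of 0.644 and 0.488, and the sign of Eif2ak3 turned, to 0.07, without vehicle replicate 1.

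The largest rises of that list were those of Impact, an inhibitor of GCN2, with a log2 fold change of 0.89, and of Eif2b4, a subunit of eIF2B, with 0.66. The 3 subunits of eIF2 and the 5 of eIF2B all rose, with log2 fold changes from 0.18 to 0.66. The smallest was that of Eif2b3, with an edgeR adjusted p of 0.0418. It had 34.2 and 33.7 CPM with carfilzomib, against 28.2 and 31.8 CPM with vehicle. Under other settings the number of genes of that list called higher went as low as 9. The 2 that fell were Ppp1r15b, which encodes the constitutive counterpart of GADD34, another subunit that guides phosphatase to eIF2, with -0.20, and Gcn1, an activator of GCN2, with -0.14. Ppp1r15b lost its call under DESeq2, with an adjusted p of 0.0639, and without carfilzomib replicate 1, where its log2 fold change was -0.15 and the adjusted p 0.132. Gcn1 lost it without carfilzomib replicate 2, at -0.11 and an adjusted p of 0.18.

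Several of the effectors have close relatives, and 4 of 7 such paralogues rose, 2 fell (1 without carfilzomib replicate 1) and 1 did not pass. Sesn1 and Sesn3, the other sestrins, rose by log2 fold changes of 0.39 and 0.35, where Sesn2 fell by 0.99. Ddit4l, the relative of Ddit4, rose to 2.92 ± 0.0895 CPM with carfilzomib, against 1.11 ± 0.118 CPM with vehicle, a log2 fold change of 1.40 at a low level. Chac2, the relative of Chac1, rose by 0.51 with an edgeR adjusted p of 0.00837. That call was lost under DESeq2, with an adjusted p of 0.129, and without carfilzomib replicate 2 or vehicle replicate 2, with adjusted p of 0.0588 and 0.0688. Trib2, the relative of Trib3, fell to 31.5 ± 1.81 CPM with carfilzomib, against 68.4 ± 3.23 CPM with vehicle, a log2 fold change of -1.12. Trib1 did not pass, at 19.4 ± 0.97 CPM with carfilzomib and 20.4 ± 1.68 CPM with vehicle, and its log2 fold change of -0.07 turned to 0.02 without vehicle replicate 2.

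Partners and relatives of ATF4 among the bZIP factors moved in both directions, with 9 of 24 higher, 10 lower and 5 not passed. By comparison, 30.6% of all tested genes were higher and 30.1% lower. The list's median log2 fold change was 0.07. Among its genes with a mean of at least 10 CPM the largest falls were those of Fos and Nfil3, with -1.20 and -0.69. Fos is an immediate early gene, and Nfil3 a repressor tied to the circadian clock. Dbp, a clock output factor, rose by 0.52 and Fosl1 by 0.52. Under DESeq2 5 of the 24 were lower. Without carfilzomib replicate 1 the number was 6, and without carfilzomib replicate 2 it was 5.

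Genes of amino acid supply, the best-known targets of ATF4, were lower almost throughout. Of 17 tested enzymes of amino acid synthesis and one-carbon metabolism 16 fell and 1 rose, and their median was -1.03 on the log2 scale. Mthfd2, a mitochondrial one-carbon enzyme, fell to 30.4 ± 0.94 CPM with carfilzomib, against 95.3 ± 1.38 CPM with vehicle, a log2 fold change of -1.65. Psat1, of serine synthesis, fell to 30.1 ± 1.76 CPM with carfilzomib, against 87.4 ± 2.59 CPM with vehicle, a log2 fold change of -1.54. The enzyme that rose, Aldh1l1, is a cytosolic folate enzyme named after its values were seen. It had 10.5 ± 0.107 CPM with carfilzomib and 0.594 ± 0.0021 CPM with vehicle (SD, n = 2 each). Over the 12 other settings the numbers of enzymes that fell and rose stayed at 16 and 1.

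Of 12 amino acid transporters 9 fell, 1 rose and 2 did not pass, and their median was -0.73 on the log2 scale. Slc7a1, a carrier of cationic amino acids, fell by 1.38 and Slc7a11, the cystine carrier, by 1.22 on the log2 scale. Slc38a2, a carrier of small neutral amino acids, rose by 0.23. Without vehicle replicate 2, and with scaling by library size alone, 2 of the 12 were higher. The 20 cytosolic aminoacyl-tRNA synthetases, which charge tRNAs and of which many are ATF4 targets, were divided, with 8 higher, 8 lower and 4 not passed. By comparison, 30.6% of all tested genes were higher and 30.1% lower. Hars1 and Nars1 rose by 0.59 and 0.58, while Cars fell by 0.65 and Vars1 by 0.48 on the log2 scale. Their median of 0.01 turned to -0.01 without carfilzomib replicate 1 and to -0.0088 without vehicle replicate 2.

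Secreted and death effectors tied to ATF4 and CHOP went both ways, with 4 of 15 tested genes higher, 6 lower and 5 not passed. By comparison, 30.6% of all tested genes were higher and 30.1% lower. Sqstm1, which encodes the autophagy receptor p62 and is also a target of NRF2, rose by a log2 fold change of 2.28, and Gdf15, a stress cytokine, by 1.77. Nupr1, a stress-induced chromatin protein, fell by 0.88 and Vegfa, the vascular growth factor, by 0.57. The CHOP targets Bbc3 and Tnfrsf10b, picked once their values were known, stood at log2 fold changes of -0.04 and -0.08 and did not pass, with edgeR adjusted p of 0.77 and 0.497. They do not stand for the list. Stc2 at -1.57, Pmaip1 at -0.61 and Gadd45a at 0.60, picked in the same way, were called. So was Adm2, at -2.29 but only 1.05 CPM on average with vehicle.

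Other stress genes were set beside these. Of 20 endoplasmic reticulum stress genes of the XBP1 and ATF6 branches 10 fell, 5 rose and 5 did not pass, and their median was -0.14 on the log2 scale. Herpud1, a degradation factor of the endoplasmic reticulum, fell by 0.85 and the transcription factor Xbp1 by 0.79, while Atf6 rose by 0.44 and the chaperone Canx by 0.40. Of 12 mitochondrial stress genes 4 rose, 0 fell and 8 did not pass. By comparison, 30.6% of all tested genes were higher and 30.1% lower. The largest rises of the 12 were 0.65 for the protease Yme1l1 and 0.64 for Clpx, the unfoldase of a mitochondrial protease. By edgeR 0 of these 12 had a lower value at an unadjusted p under 0.05, and DESeq2 called 0 lower.

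Sesn2 and Ddit4 act on mTORC1. Other regulators of mTORC1 and translation, most of them brakes, were also divided, with 5 of 12 higher, 4 lower and 3 not passed. By comparison, 30.6% of all tested genes were higher and 30.1% lower. Eif4ebp1, a translation repressor induced by ATF4, fell to 83.8 ± 1.30 CPM with carfilzomib, against 197 ± 22.4 CPM with vehicle, a log2 fold change of -1.23. Deptor, an mTOR inhibitor, fell by 0.76. Flcn, which acts in the nutrient sensing of lysosomes and is not a plain brake, rose by 0.81. Tsc2, part of the tuberous sclerosis complex, rose by 0.60.

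**Figure D4:**
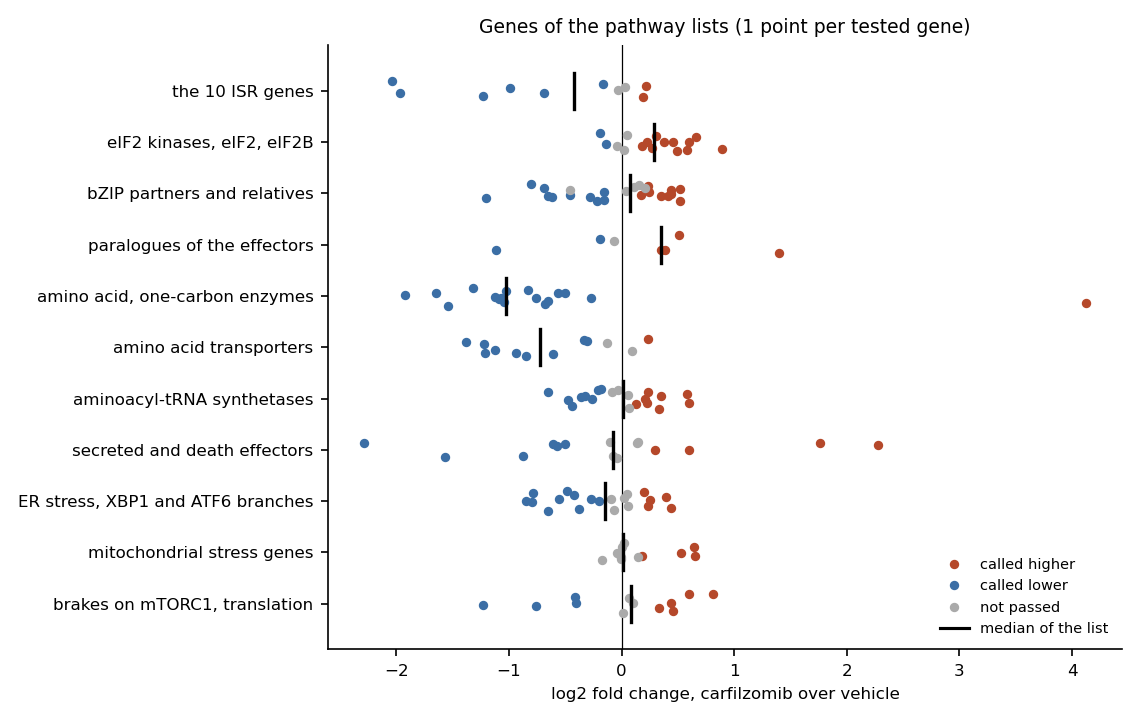
Log2 fold change, carfilzomib over vehicle, of every tested gene of the pathway lists (points, coloured by the edgeR call, with bars for list medians, vertical scatter random). The median of the enzymes of amino acid and one-carbon metabolism lies at -1.03 and that of the amino acid transporters at -0.73, below that of the 10 genes of the integrated stress response (ISR) at -0.43, while the list of eIF2 and its kinases lies at 0.29.

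Among 10000 genes with a mean of at least 10 CPM, those most like Atf4 across the 4 libraries were Shmt1, Zfp469 and Snn. Likeness was the Euclidean distance between log2 CPM values centred on their mean over the 4 libraries, and it was 0.014, 0.021 and 0.028. Shmt1, a cytosolic serine hydroxymethyltransferase, had a log2 fold change of -0.68, Zfp469 had -0.69 and Snn had -0.70. With 4 libraries in 2 groups such a distance mostly reads the size of the fold change.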

How the data were processed

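RNA of 2 carfilzomib and 2 vehicle libraries was measured, with groups and numbers from the sample titles. The columns are named for control and carfilzomib, and the control columns were read as the equally numbered vehicle libraries because the labels hold no other control. The authors deposited estimated counts per gene, and in each library 28.5% to 28.9% of genes have a value off the nearest integer by over 1e-06, and FPKM values per gene, per the file headers. Reads apportioned between near-identical or overlapping genes may move their values, and whether counting used strand is not stated. For the genes the authors called changed, a second deposited table holds the log2 fold change, p-value and q-value, made with DESeq2 as its header says. The submitters' processing notes name the build Rnor_6.0 and, with no order or role, featureCounts 1.6.0, HISAT, Bowtie2, DESeq2, R 3.3.2, cutadapt 2.0 and FastQC 0.11.8. TPM values and group means, 10 columns in all, were not used.

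Estimated counts were rounded and tested with edgeR 4.0.16 (R 4.3.3) after filterByExpr (count of 10, total of 15), with TMM factors and the robust quasi-likelihood F test, Benjamini-Hochberg adjustment over all 14519 genes tested and a threshold of 0.05. The common biological coefficient of variation was 0.0465. SE was taken as |log2 fold change| over the root of F. Replicates were not copies of each other: chi-square over its degrees of freedom was 3.08 between the carfilzomib libraries and 3.42 between the vehicle libraries. The alternatives were DESeq2 1.42.0, limma-voom 3.58.1, RLE factors, library size alone, factors without the 10 most abundant genes, no low-count filter, a stricter filter (1 CPM in 2 libraries, total 50), a replicate block and leaving out each library. The fit was tested on simulated data of 14304 genes. It recovered 51.0% of changes of 1.25-fold, 78% of 1.5-fold, 80% of 2-fold and 100% of 4-fold. Of its 155 calls 3 were false. Calls were thus far rarer there than in the data, where 60.7% of tested genes were called. The adjustment of p-values depends on that share, so these figures may not carry over to the data. No fold under 1.25 was among those simulated, so a gene that did not pass may still have changed slightly.

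The 10 genes, 10 other pathway lists and 5 marker lists were chosen with earlier results of these data known, and the lists share some genes. By a fixed rule the 10, all paralogues, the eIF2 kinases and the 3 genes most like Atf4 were named. From each pathway list the rule added the 2 largest called rises and falls with a mean of at least 10 CPM. Other named genes, such as Eif2b3, Aldh1l1, Des, Bbc3, Stc2 and those listed by promoter motif, fall outside this rule. They were named with their values known. Motifs were counted on both strands of RefSeq promoter windows (GRCr8).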

Additional observations from a re-analysis of the deposited data

How the results depend on the processing

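Of the 10 genes, Atf4, Atf5, Chac1, Trib3, Sesn2 and Ppp1r15a kept their direction and call under all 12 alternatives. The cause of the changes below was not tested. The median log2 fold change of the 10 was -0.39 with library size alone and lay between -0.44 and -0.40 with single libraries left out. The number of the 10 called higher was 1 with DESeq2 and 1 with the replicate block, where Atf3 had an adjusted p of 0.0654 and Ddit3 of 0.0599, and leaving out single libraries gave 1 to 2. Ddit3 also lost its call with library size alone, with an adjusted p of 0.0767. Under other settings the number of the 10 called lower went as low as 5. With DESeq2 5 bZIP genes, 1 paralogue and 1 gene of the eIF2 list were called lower, and with library size alone 2 amino acid transporters were called higher. Leaving out single libraries gave 5 to 8 bZIP genes, 1 to 2 paralogues, 1 to 2 genes of the eIF2 list and 1 to 2 transporters. Signs turned for uncalled genes only. Ddit4 was at 0.0040 with library size alone, and with single libraries left out Cebpb ranged from -0.10 to 0.17, Eif2ak3 from -0.15 to 0.071 and Trib1 from -0.15 to 0.016. Where 1 library of a group was left, it was assumed to vary like the other group. Replicate numbers pair the libraries by no label, and the replicate differences of the groups correlated at -0.00232 over genes.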

Other observations

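The aminoacyl-tRNA synthetases, which were divided as a list, were looked at again by their promoter windows after their values were seen, with no test. Of the 17 with a RefSeq window 7 hold TGATGNAA, and of these 5 fell (Aars, Cars, Mars1, Tars1 and Yars1), 1 rose (Nars1) and Iars1 did not pass. Of the 10 without it 2 fell, 5 rose and 3 did not pass. The median log2 fold change was -0.26 with the motif and 0.10 without it. All 3 amino acid enzymes with the motif (Pck2, Got1 and Pycr1) and all 3 transporters with it (Slc7a1, Slc1a4 and Slc38a1) fell, as did 10 of the 11 enzymes and 4 of the 7 transporters without it. Of the 2 genes of the eIF2 list with the motif, Eif2s2 rose by 0.27 and Ppp1r15b fell, and the mitochondrial gene with it, Hspa9, did not pass. The genes with it in the other lists fell, namely Chac1, Trib3, Jdp2, Nupr1 and Herpud1. Iars1, Mars1, Slc7a1, Slc38a1, Ppp1r15b, Nupr1 and Hspa9 have counts with decimals. Over all tested genes with a window, 34.3% of the 251 with the motif were called lower and 33.1% higher, where 29.9% of the 11056 without it were called lower and 32% higher.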
